A study of Mus musculus with 8 samples.

Results

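Starvation and crowding both stop fibroblasts from dividing, and the data here set the small RNAs of cells stopped in these 2 ways side by side. The comparison used the 3 libraries, of 8 in all, that the labels place in G0, the resting state outside the cell cycle: serum 0 h against contact day 3 and contact day 5. Their phase label, and not a measured value, decided which libraries entered, although the comparison itself was proposed with earlier results of these data known. All are from NIH-3T3, an immortalised mouse embryo fibroblast line kept in medium with 10% serum. The serum 0 h library was made from cells deprived of serum for 48 h and collected at 0 h, the start of the return to 20% serum. The contact libraries came from cells plated at 12% confluency and grown to contact inhibition for 3 or 5 days. Levels are reads in counts per 1000000 (CPM) with a composition scaling, and a miRNA was called higher (or lower) in starved cells when its scaled level was at least 2-fold higher (or lower) than in each contact library, with both 95% counting intervals excluding 1. The gap between serum 16 h (released cells, labelled S phase) and contact day 0 (asynchronous cells), neither labelled G0, served as a gauge of how far apart the 2 experiments were in general. Each condition is 1 library, so no ratio has a replicate check, and the mode of arrest cannot be told apart from the experiment it belongs to.

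A miRNA is a short RNA cut from a hairpin precursor, whose 5p and 3p arms can each be loaded into an Argonaute protein. The loaded strand pairs with messenger RNAs mainly through its seed, the bases just after its first one, and lowers their stability and translation. miRNAs that share a seed act on overlapping targets, so families are described together here. In fibroblasts, the let-7 and miR-34 families restrain growth genes, the miR-17 to miR-92 cluster promotes proliferation, and the miR-16 family with miR-503 represses cyclins.

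The miRNAs that the results describe in most detail are shown first, whether or not they also differed outside G0, as mature sequences 5′ to 3′ from RefSeq (GRCm38.p6), with the seed (bases 2 to 8) in capitals. Those higher in starved cells are miR-10a-5p, with its seed partner miR-10b-5p for comparison, the epithelial set, the minor arm of let-7d, and miR-409-3p.
miR-10a-5p: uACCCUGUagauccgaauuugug
miR-10b-5p: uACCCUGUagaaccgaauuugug
miR-200c-3p: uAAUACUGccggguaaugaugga
miR-200b-3p: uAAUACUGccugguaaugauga
miR-141-3p: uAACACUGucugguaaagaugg
let-7d-3p: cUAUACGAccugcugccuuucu
miR-409-3p: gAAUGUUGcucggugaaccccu

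Those lower in starved cells are 3 members of the let-7 family, which share a seed, both miR-130 paralogs, members of the miR-17 seed group, and miR-155-5p, miR-7a-5p, miR-299a-3p and miR-34b-5p.
let-7d-5p: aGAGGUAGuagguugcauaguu
let-7e-5p: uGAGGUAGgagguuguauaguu
let-7f-5p: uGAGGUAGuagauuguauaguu
miR-130a-3p: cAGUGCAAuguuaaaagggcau
miR-130b-3p: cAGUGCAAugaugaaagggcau
miR-17-5p: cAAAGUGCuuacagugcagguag
miR-20a-5p: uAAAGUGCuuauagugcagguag
miR-106b-5p: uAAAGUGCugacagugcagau
miR-155-5p: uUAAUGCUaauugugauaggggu
miR-7a-5p: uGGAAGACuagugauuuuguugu
miR-299a-3p: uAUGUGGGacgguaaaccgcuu
miR-34b-5p: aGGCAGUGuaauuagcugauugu
miR-503-5p, which stood high in all 3 libraries, reads as follows.
miR-503-5p: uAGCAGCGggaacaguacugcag

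Their places in GRCm38 differ widely. miR-10a-5p lies at chr11:96317186-96317208 on the plus strand, outside any other annotated gene, and miR-10b-5p at chr2:74726074-74726096 on the plus strand in introns of Hoxd3 and Hoxd4. miR-200c-3p (chr6:124718324-124718346) and miR-141-3p (chr6:124717917-124717938) are neighbours on the minus strand in an intron of Gm15884. miR-155-5p is at chr16:84714143-84714165, plus strand, in an exon of Mir155hg. let-7d-5p and let-7d-3p lie at chr13:48536078-48536099 and chr13:48536024-48536045 on the minus strand, in an exon of the lincRNA gene 6720427I07Rik, which also holds 1 of the 2 loci of let-7f. miR-130a-3p (chr2:84741116-84741137, minus strand) lies outside other genes, and miR-409-3p (chr12:109743204-109743225, plus strand) is in an intron of Mirg within the imprinted Dlk1-Dio3 locus.

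The libraries differed in kind before any miRNA was compared. The starved library held 6121247 reads, of which 62.4% were marker oligonucleotides and 27.9% inserts too short to use, and 236819 reads were assigned to miRNAs. Contact days 3 and 5 held 763334 and 801593 reads, at most 0.0348% of them marker reads and 1.41% short inserts, with 435679 and 459477 miRNA reads. miRNAs made up 51.2% of the usable inserts of the starved library and 76.2% and 76.8% of those of the contact libraries. Marker reads were above 62% in each serum library and under 0.04% in each contact library, so marker content followed the experiment, while the short inserts stood out at 0 h alone among the serum libraries (0.243% to 0.775% in the other 4). The part of either in the results below was not tested.

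The fibroblast label was checked against its miRNAs. The 6 measured fibroblast or mesenchymal miRNAs were read in all 3 libraries, and their list took 17.2% of miRNA reads in the starved library, 3.64% on day 3 and 19.8% on day 5. miR-199a-3p, which shares its sequence with miR-199b-3p and is typical of mesenchymal cells, was the most abundant miRNA in the starved library (13.0% of miRNA reads) and on day 5 (16.2%), while miR-24-3p led on day 3 (9.04%). Its scaled level of 97360 CPM in starved cells lay between the contact libraries, at 27059 CPM on day 3 and 261273 CPM on day 5. miR-21a-5p, which growth factors induce in many cell types, stood at 77966, 87462 and 208491 CPM, with starved cells near day 3 and day 5 apart. Neither was called.

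At least 100 reads in 1 library or more of the 3 were found for 181 miRNAs. Of these, 27 were called higher in starved cells (14.9%) and 35 lower (19.3%). The gauge pair gave more calls from 1 ratio instead of 2, with 67 of 215 higher in the serum library (31.2%) and 55 lower (25.6%). The size of the gap was also similar: 60.3% of miRNAs were at least 2-fold apart between starved cells and day 3, 50.9% between starved cells and day 5, 56.7% in the gauge pair, and 41.9% between contact days 5 and 3. The split between directions rests on the scaling, since the composition factors were 1.33 for the starved library and 0.759 and 0.620 for days 3 and 5. With plain shares of miRNA reads the count was 61 higher and 16 lower (79.2% higher against 43.5%), and the median log2 ratio over all 181 moved from −0.17 to 0.78. Under all 4 scalings tried, 27 miRNAs were called higher and 16 lower.

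Many of the G0 differences were also present outside G0. Among the 27 higher miRNAs, 13 were at least 2-fold higher in serum 16 h than in contact day 0, 10 were within 2-fold, 1 was on the other side and 3 had too few reads there. Among the 35 lower ones, 18 were on the same side in the gauge, 15 within 2-fold and 2 on the other side. Over all 181 miRNAs, called in G0 or not, the gauge had 51 higher and 48 lower. Across 176 miRNAs with reads in both comparisons, the mean log2 ratio in G0 and the log2 ratio of the gauge had a Pearson correlation of 0.573 and a Spearman correlation of 0.578. This describes miRNAs, which are not independent, and each axis holds 1 serum library against libraries of the other experiment. For 7 of the higher and 18 of the lower miRNAs the G0 gap exceeded that of the gauge by at least 2-fold. The ratio to the nearer contact library was used, and a gauge gap on the other side counted as negative.

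**Figure D1:**
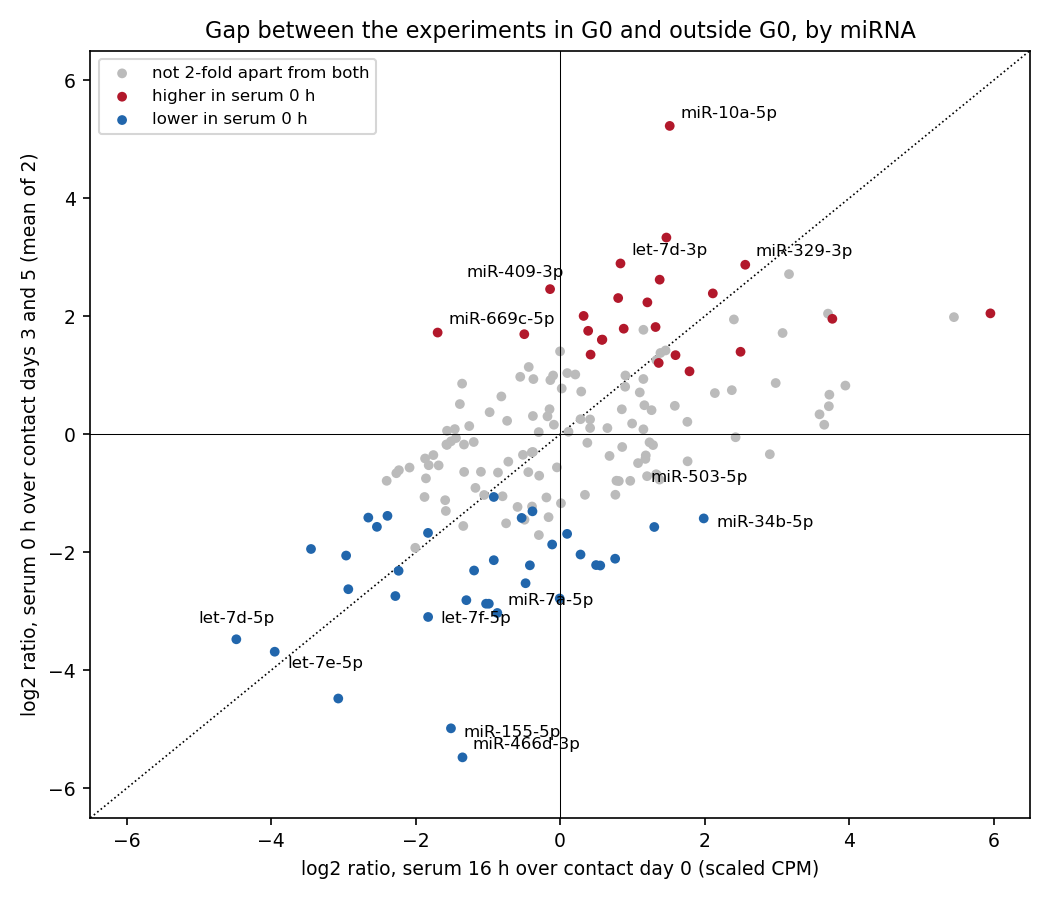
Each point is 1 of 176 miRNAs, with the log2 ratio of scaled CPM between serum 16 h and contact day 0 on the x axis and between serum 0 h and the contact G0 libraries (mean of 2 log2 ratios) on the y axis. Points on the dotted line have the same gap in both comparisons, and miR-10a-5p, at 5.23 on the y axis and 1.52 on the x axis, stands farthest above it among the labelled miRNAs.

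edgeR was fitted to all 8 libraries in 4 arms (starved, released, asynchronous and contact G0), so its p-values measure the spread between libraries of unlike times. It called 1 of 341 miRNAs higher in starved than in contact G0 (0.293%) and 4 lower (1.17%), with 50 at an unadjusted p under 0.05. The higher one was miR-10a-5p, and the lower ones were miR-155-5p, let-7d-5p, let-7e-5p and let-7f-5p. The number rests on single libraries of the fit. Without serum 12 h edgeR called 21, without contact day 3 it called 16, without contact day 5 it called 12, and without serum 16 h it called 0 (48 unadjusted), where the smallest adjusted p was 0.0579. Whether the G0 gap differed from the gap between released and asynchronous cells was tested as an interaction. edgeR called 0 miRNAs, with 17 at an unadjusted p under 0.05 and a smallest adjusted p of 0.825. The Wald test of DESeq2 also called 0, with 28 at an unadjusted p under 0.05 and a smallest adjusted p of 0.252. Without contact day 3 the interaction called 1, miR-199a-3p/miR-199b-3p, at a log2 value of −2.87 (edgeR adjusted p 0.0425).

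miR-10a-5p, a miRNA encoded among the Hoxb genes, showed the widest gap of the higher miRNAs outside the epithelial set described further on. It had 924 reads in the starved library, 16 on contact day 3 and 36 on day 5, which is 2927, 48.4 and 126 CPM. Starved cells were 60.5-fold above day 3 (95% interval 37.04 to 106) and 23.2-fold above day 5 (16.6 to 33.3). The gauge gap was 2.86-fold on the same side, and the 4 released libraries lay between 102 and 167 CPM, close to day 5 and far below the starved library. edgeR gave a log2 fold change of 5.06 (SE 0.87, Benjamini-Hochberg adjusted p 0.0148, with 0.0579 without serum 16 h). Its seed partner miR-10b-5p, with the same bases 2 to 8, stood at 4134 CPM in starved cells, 551 on day 3 and 4331 on day 5. miR-10b-5p was thus level with day 5 and was not called. The difference between the 2 members was not tested. Neither was the source of the miR-10a-5p reads in the starved library, which also stood alone for the epithelial set.

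The lowest starved level relative to the nearer contact library, apart from a miRNA with 0 reads, was that of miR-155-5p, which stimuli induce in immune cells and fibroblasts. It had 14 reads in starved cells, 669 on day 3 and 277 on day 5, at 44.4, 2024 and 972 CPM. The starved level was 0.0219 of day 3 (95% interval 0.0119 to 0.0370) and 0.0456 of day 5 (0.0246 to 0.0779). The released libraries lay between 1281 and 2371 CPM, and contact day 0 was highest at 4361 CPM, so that the starved library stood apart below all other 7. The gauge ratio was 0.351, and edgeR gave −5.07 (SE 1.02, adjusted p 0.0239). miR-146b-5p, known for damping inflammation, was also lower, at 301 CPM against 1065 on day 3 and 4029 on day 5. Its gauge ratio was 0.996. miR-155-5p and miR-146b-5p were the only miRNAs whose lower level in starved cells exceeded the gauge by 2-fold under every scaling, minimum of reads, base match and released library tried.

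**Figure D2:**
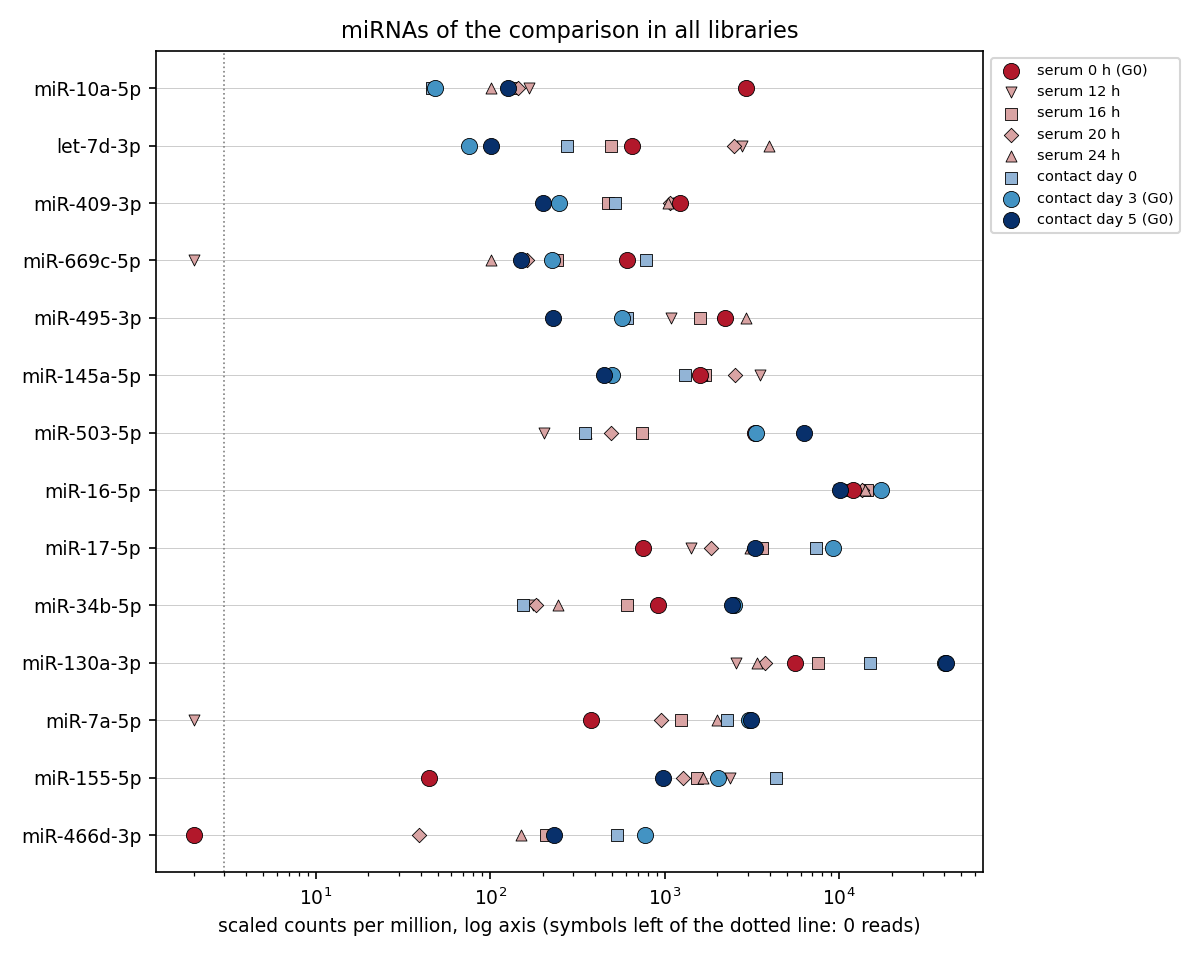
Scaled CPM on a log axis for 14 miRNAs in all 8 libraries, with the 3 G0 libraries as large circles and symbols left of the dotted line at 0 reads. miR-10a-5p has its starved library alone at the right, miR-155-5p has it alone at the left, miR-466d-3p has it at 0 reads with serum 12 h, and miR-16-5p has all 8 libraries close together.

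The let-7 miRNAs, which share the seed GAGGUAG and repress Ras genes, formed the most abundant family to differ. The 9 members summed to 99429 CPM in starved cells, 555699 on day 3 and 542728 on day 5, or 13.3%, 42.2% and 33.7% of miRNA reads. All 9 had lower levels in starved cells than in either contact library, and 7 of 9 were called lower, against 19.3% of all miRNAs, but 4 of 9 with plain shares. The gauge had the same form: 7 of 9 were lower in serum 16 h, beside 48 of all 181 miRNAs. The family sums were 136690 CPM there and 947727 CPM on contact day 0. The family median was −2.06 (log2, mean over both contact libraries) in G0 and −2.53 in the gauge, beside −0.17 and −0.02 over all miRNAs. Starved cells lay within the range of the 4 released libraries (83077 to 136817 CPM), while day 0, not labelled G0, had the highest sum.

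Within the family the members differed in size. let-7d-5p, with 2615, 37338 and 21372 reads, was at 8284, 112963 and 75003 CPM and so at 0.0733 of day 3 and 0.110 of day 5. let-7e-5p, encoded in an intron of Spaca6, was at 4147, 83889 and 33898 CPM. let-7f-5p was at 17408, 110131 and 201132 CPM, and unlike the other 2 it was higher on day 5 than on day 3. edgeR called these 3, at −3.504 (SE 0.73, adjusted p 0.0239), −3.83 (SE 0.80, 0.0239) and −3.16 (SE 0.73, 0.0454), and over 13 alternatives their adjusted p reached 0.0579, 0.0617 and 0.104. let-7a-5p, let-7b-5p, let-7c-5p and miR-98-5p were called lower by ratio only, and let-7g-5p (2953, 5703 and 10714 CPM) and let-7i-5p missed it on day 3.

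**Figure D3:**
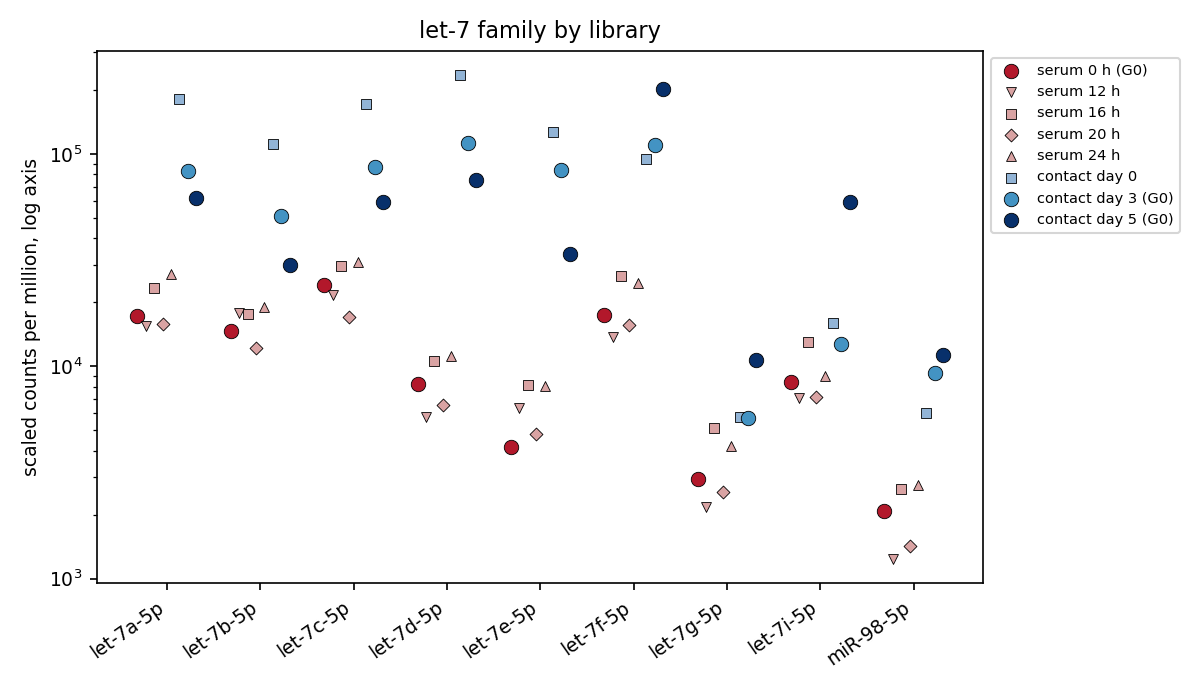
Scaled CPM of the 9 let-7 family members on a log axis in each library, serum libraries in red tones and contact libraries in blue. For every member but let-7i-5p, all 5 serum libraries lie below all 3 contact libraries, whether or not the library is labelled G0.

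The 2 arms of let-7d went opposite ways. let-7d-3p, the minor arm, had 206 reads in starved cells, 25 on day 3 and 29 on day 5, and its scaled level was 8.63-fold higher than on day 3 and 6.41-fold higher than on day 5. The 3p arm was 7.30% of let-7d reads in starved cells (95% exact interval 6.37 to 8.33%), against 0.0669% for contact day 3 (interval 0.0433 to 0.0988%) and 0.136% for contact day 5 (interval 0.0908 to 0.195%). The share followed the experiment and not the G0 label, being 4.49% to 32.7% in the 4 released libraries and 0.118% on contact day 0. Since both arms come from 1 hairpin in 1 library, the share does not depend on scaling. Among 13 other hairpins with at least 50 reads of each arm in the 3 libraries, the 3p share was higher in starved cells than in both contact libraries for miR-22, miR-29a and miR-411 and lower for miR-299a, with intervals apart, and all 4 were on the same side in the gauge. For miR-411 it was 47.0% in starved cells against 18.4% on day 3 and 13.3% on day 5, and for miR-299a 56.5% against 92.01% and 94.4%.

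**Figure D4:**
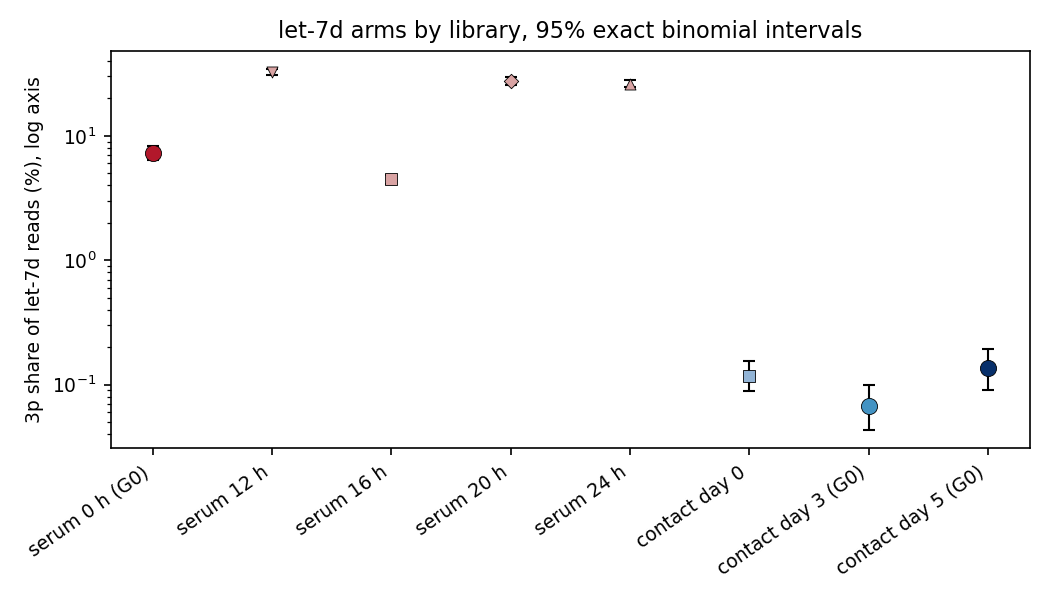
Share of let-7d reads from the 3p arm in each library, in percent on a log axis, with 95% exact binomial intervals. All 5 serum libraries lie at 4.49% or above and all 3 contact libraries at 0.136% or below.

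Some miRNAs known for promoting proliferation were lower in starved than in contact-arrested cells. Of 9 measured members of the miR-17 to miR-92 and miR-106b to miR-25 clusters, 3 were called lower and 0 higher, beside 19.3% and 14.9% of all miRNAs. The gauge had 4 lower and 2 higher, beside 48 and 51 of all 181 miRNAs. Of the 3 called in G0, miR-17-5p had 237, 3033 and 937 reads, or 751 CPM in starved cells, 9176 on day 3 and 3288 on day 5. miR-20a-5p, from the same primary transcript, stood at 545, 3280 and 1976 CPM. miR-106b-5p, in an intron of the replication gene Mcm7, stood at 1191, 9391 and 3281 CPM. All 3 share the seed AAAGUGC with miR-93-5p, which lay just outside the threshold on day 5 (log2 ratio −0.99). With plain shares 1 of the 9, miR-17-5p, was still called. The gauge ratios were 0.492 for miR-17-5p, 1.47 for miR-20a-5p and 0.749 for miR-106b-5p. Unlike the rest, miR-25-3p had a positive mean log2 ratio, of 0.14.

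miR-130a-3p, best known from endothelial cells, had 1751, 13354 and 11621 reads, at 5547 CPM in starved cells, 40401 on day 3 and 40783 on day 5. The ratios of 0.137 and 0.136 had 95% intervals of 0.131 to 0.144 and 0.129 to 0.143, so both contact days stood level. Its gauge ratio was 0.505, with 15060 CPM on contact day 0 and 2544 to 7602 CPM in released cells, so days 3 and 5 had the 2 highest levels. Its paralog miR-130b-3p was at 155, 1364 and 789.6 CPM, with a gauge ratio of 0.206. The third measured carrier of the seed AGUGCAA, miR-301a-3p, was near equal at 1555, 1501 and 2576 CPM and 7.48-fold higher in serum 16 h than on contact day 0. Of the 3, 2 were called lower, beside 19.3% of all miRNAs. Both were also called with plain shares, which gave 16 lower of 181.

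miR-103-3p/miR-107-3p, whose first 20 bases are shared and which sit in introns of pantothenate kinase genes, were at 11848 CPM in starved cells against 58454 and 59316 CPM. Their gauge ratio of 0.212 lay close to the G0 ratios of 0.203 and 0.1997. miR-140-3p, a cartilage miRNA inside Wwp2, was at 814, 4744 and 5320 CPM, with a gauge ratio of 0.131. For both, every serum library was low and every contact library was high, G0 or not. miR-7a-5p, with 2 loci of which 1 is intronic to Hnrnpk, was at 377 CPM in starved cells against 3034 and 3116 CPM, with a gauge ratio of 0.548 and 0 reads at serum 12 h. Its gap in G0 was thus wider than the gap to serum 16 h, but not than the gap to serum 12 h.

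2 lower miRNAs were at or near 0 reads in starved cells. miR-466d-3p, of a large repeat-rich family, had 0 reads in starved cells, 255 on day 3 and 66 on day 5. With 3 counts as the limit that 0 reads allow, starved cells were at most 0.0123 of day 3 and 0.0410 of day 5. It also had 0 reads at serum 12 h and at most 209 CPM in the other released libraries. miR-29b-1-5p, the passenger arm of a collagen-repressing miRNA, had 3, 176 and 24 reads, and 456 on contact day 0. Its partner family members differed from it: of 5 measured arms of the miR-29 family it alone was called, while miR-29a-3p stood at 56012, 25513 and 30879 CPM with ratios of 2.20 and 1.81.

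In the miR-34 family, whose genes p53 activates, most arms were lower in starved cells under composition scaling. miR-34b-5p had 289, 827 and 689 reads, at 916, 2502 and 2418 CPM, and miR-34c-5p was at 2091, 4907 and 6356 CPM. Of 4 measured arms 3 were called lower and 0 higher, beside 19.3% and 14.9% of all miRNAs, but 0 were called with plain shares, where the family median was −0.40. The gauge gap of miR-34b-5p lay on the other side, 3.97-fold higher in serum 16 h (611 CPM) than on contact day 0 (154 CPM). In starved cells both arms stood above all 4 released libraries (177 to 611 CPM and 761 to 1361 CPM), so the order was contact G0, starved, then released.

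The miR-322/miR-503 cluster on the X chromosome, whose members repress cyclins, had its 2 main arms high in both arrests. miR-503-5p stood at 3272 CPM in starved cells, 3340 on day 3 and 6310 on day 5, and miR-322-5p at 11370, 14425 and 25963 CPM. Neither was called, and for miR-503-5p the ratio to day 3 was 0.980 with a 95% interval of 0.899 to 1.07. The 5 libraries not labelled G0 had 204 to 738 CPM of miR-503-5p, all under the 3 G0 levels. Of 5 measured arms of the cluster 1 was called, miR-322-3p, the minor arm, at 345 CPM in starved cells against 112 and 116 CPM. The 2 remaining arms were miR-351-5p (1426, 354 and 1007 CPM) and miR-542-3p (238, 72.6 and 621 CPM), called in neither direction.

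The imprinted Dlk1-Dio3 locus on chromosome 12, whose maternal allele makes a long array of miRNAs, was the longest list measured, with higher and lower members. Of 34 measured arms on the list 10 were called higher and 3 lower, against 14.9% and 19.3% of all miRNAs. With plain shares the list had 20 higher and 1 lower. It leaves out some measured arms of the locus, such as miR-127-5p and miR-379-3p, so the counts hold for the list only. miR-329-3p had 157, 31 and 14 reads, miR-495-3p 701, 189 and 65, and miR-409-3p 387, 82 and 57. In CPM these were 497, 93.8 and 49.1 for miR-329-3p, 2221, 572 and 228 for miR-495-3p, and 1226, 248 and 200.04 for miR-409-3p. The gauge gave 14 higher and 5 lower of the list, beside 51 and 48 of all 181 miRNAs. Its ratio was 5.91-fold for miR-329-3p and 2.60-fold for miR-495-3p but 0.908 for miR-409-3p.

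The locus did not move as 1 block. miR-299a-3p was lower in starved cells, at 1014 CPM against 3482 and 6373, while the other arm of its hairpin, miR-299a-5p, was called higher. miR-154-5p was also lower, with 14, 117 and 78 reads, and its other arm miR-154-3p was higher. The median of the 34 listed arms was 0.82 (log2), with members from −2.81 to 2.87. For miR-299a-3p the gauge ratio was 1.41 and the starved level lay within the released range of 909 to 1437 CPM, so the day 3 and day 5 libraries were the ones that stood apart.

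Other higher miRNAs came from various families, mostly as single members. miR-30b-5p was at 1261 CPM in starved cells against 215 and 270.2 CPM, the only 1 of 5 measured miR-30 members called. miR-99a-5p, a repressor of mTOR, was at 909 CPM against 263 and 253 CPM. miR-574-3p had 158, 8 and 29 reads, at 501, 24.2 and 102 CPM. All 3 were also at least 2-fold higher in the gauge, by 4.33-fold, 2.50-fold and 2.77-fold.

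The higher miRNAs whose G0 ratio exceeded the gauge ratio by at least 2-fold were miR-10a-5p, let-7d-3p, miR-409-3p, miR-669c-5p, miR-423-3p, miR-128-3p and miR-145a-5p. miR-145a-5p, known from contractile and mesenchymal cells, was at 1597 CPM in starved cells against 499 and 449 CPM, 1.31-fold apart in the gauge. It lay near the lowest of the 4 released libraries (1629 to 3512 CPM) and above contact day 0 (1300 CPM), so the contact G0 libraries were the low ones. miR-669c-5p, of the Sfmbt2 cluster, was at 611 CPM against 227 and 151 CPM, and lay on the other side in the gauge (243 CPM in serum 16 h, 786 CPM on day 0). miR-10a-5p had too few reads for the gauge with serum 12 h, 20 h or 24 h. miR-409-3p and miR-669c-5p were the only higher miRNAs to exceed the gauge by 2-fold with each of the 4 released libraries in turn, and none did so under every setting tried. These 2 had at most 387 and 193 reads in a G0 library, so a minimum of 500 reads left them out.

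Some abundant miRNAs were close to equal in both kinds of arrest. miR-26a-5p, a repressor of Ezh2, stood at 27624 CPM in starved cells, 22893 on day 3 and 28802 on day 5. miR-16-5p, a repressor of cyclins D and E, stood at 11968, 17426 and 10037 CPM. miR-221-3p, a repressor of the cell-cycle inhibitor p27, stood at 6323, 8880 and 7338 CPM, and its neighbour miR-222-3p at 6475, 10643 and 5011 CPM. In these 4 the starved level lay between the contact libraries or within 1.5-fold of the nearer one, whereas the gauge ratio of miR-221-3p was 0.296. miR-26b-5p and miR-125b-5p were the other 2 nearest to equal among miRNAs with at least 1000 reads in each G0 library.

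**Figure D5:**
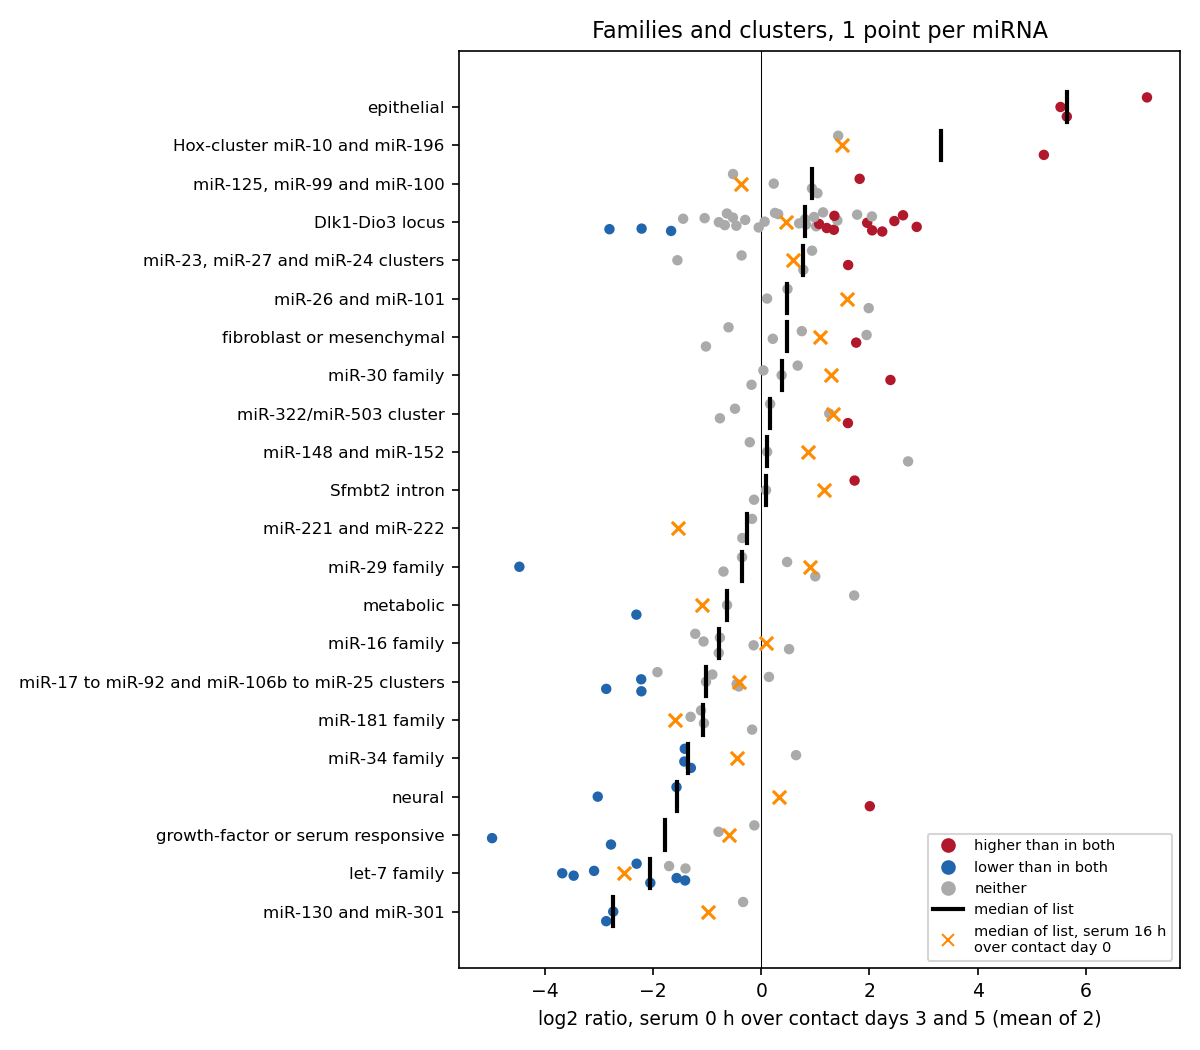
Each point is a miRNA in its family or cluster, placed by the mean log2 ratio of serum 0 h to contact days 3 and 5, with the black bar at the list's median and the orange cross at its median in the gauge. All let-7 points and the let-7 median in the gauge lie left of 0, the Dlk1-Dio3 locus spreads over both sides, and the epithelial points, 2 of them lower bounds, lie farthest right.

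Counts for the other lists were small and are to be read beside the shares over all miRNAs, 14.9% higher and 19.3% lower. The miR-16 family had 0 of 6 called in either direction. The clusters of miR-23, miR-27 and miR-24 had 1 of 5 higher (miR-23b-3p, 2423 CPM against 886 and 716), the miR-125, miR-99 and miR-100 list 1 of 5 higher, and the Hox-cluster list 1 of 2 higher. The growth-factor or serum responsive list had 2 of 4 lower and the metabolic list 1 of 3 lower. The Sfmbt2 intron list had 1 of 3 higher and the fibroblast list 1 of 6 higher. The Sfmbt2 list leaves out miR-466d-3p, which was called lower, and the measured miR-466-3p group. Its count holds for the list only. The miR-181 family (4 measured), miR-148 and miR-152 (3), miR-26 and miR-101 (3) and miR-221 and miR-222 (2) had 0 called.

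Markers of other cell types were checked in the same libraries. miR-200c-3p, miR-141-3p and miR-200b-3p, miRNAs of epithelial cells, had 354, 155 and 143 reads in the starved library, 3, 0 and 0 on day 3, and 2, 0 and 0 on day 5. miR-200c-3p was 124-fold above day 3 (95% interval 41.9 to 602) and 160-fold above day 5 (43.9 to 1324). With 3 counts per library as the limit for 0 reads, miR-141-3p was at least 46.6-fold and miR-200b-3p at least 43.0-fold higher than in either contact library. The epithelial list summed to 685 reads at serum 0 h and to 0 to 13 reads in each of the other 7 libraries, released cells from the same experiment included. Fewer cells of a type and less RNA per cell cannot be told apart in such bulk libraries, and whether these reads came from the starved cells or were carried over from other samples was not tested. These 3 miRNAs are among the 27 higher calls, and 24 remain without them. The blood list had 62 reads in the starved library, all of miR-142a-3p, and 4 and 2 in the contact libraries. The pluripotent list had 52, 34 and 4 reads and the muscle list 75, 88 and 39, and no member of these 3 lists reached the minimum of reads. Of 3 measured neural miRNAs, miR-128-3p was higher (405 CPM against 121 and 84.2) and miR-9-5p (171 against 463 and 558) and miR-7a-5p were lower.

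The ends of the miRNAs were compared as a readout that scaling does not touch. Only reads of at least 20 nt that matched the first 20 bases of a miRNA entered, so reads shortened below that do not count. For 89 miRNAs there were at least 100 reads in each of serum 0 h, serum 16 h and contact days 0, 3 and 5. Their median of the mean read length was 22.06 nt in starved cells, 22.15 nt on day 3 and 22.11 nt on day 5. Among all usable inserts, those of 19 nt were 9.17% in starved cells, 2.24% on day 3 and 2.30% on day 5. They were 4.41% in serum 16 h and 1.55% on contact day 0. Starved reads were shorter than in both contact libraries for 50 of 89 miRNAs and longer for 26, and in the gauge serum 16 h was shorter for 62 and longer for 27. The median share of reads with 1 to 3 added A at the 3′ end was 4.32% in starved cells, 7.93% on day 3 and 6.35% on day 5, and it was below both contact libraries for 61 of 89 miRNAs. The gauge pair differed the same way, at 7.44% in serum 16 h and 9.59% on contact day 0. Added U had medians of 3.502%, 1.81% and 3.76%, and single miRNAs went both ways, with starved cells above both contact libraries for 39 of 89 and below both for 33. In the gauge, added U was higher in serum 16 h for 73 of 89 and lower for 14. The base composition of the miRNAs did not follow the G0 ratio: GC content and the mean log2 ratio had a Pearson correlation of 0.0152 over 181 miRNAs, against −0.289 with the gauge ratio over 176.

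The starved levels of the called miRNAs were also placed against the released cells of the same experiment. Of the 27 higher miRNAs, 14 were above all 4 released libraries, 11 within their range and 2 below it. Of the 35 lower ones, 6 were below all 4, 24 within and 5 above. These counts use the same starved library as the calls. The shares over all miRNAs are not given beside them, so they show nothing particular to the called ones. Uncalled miRNAs also took each position: miR-10b-5p and miR-503-5p stood above all 4 released libraries, miR-16-5p within and miR-125b-5p below. At the threshold, miR-376b-3p (log2 ratio to the nearer contact library 1.01) lay just inside and miR-148a-3p (0.96) just outside on the higher side, and miR-374b-5p (−1.01) just inside and miR-93-5p (−0.99) just outside on the lower side.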

How the data were processed

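Per the labels, small RNA was profiled in 8 NIH-3T3 libraries, 1 per time point. The deposited files list distinct 36-nt reads and the count of each as the authors deposited it, with the 3′ adapter still in place. Library construction is given there only by reference to an earlier publication, and the authors' aligner, filters and build were not given in the sources used here. From these counts, the adapter was removed (at least 6 bases, 1 mismatch per 8), reads within 3 edits of, or sharing 12 bases with, 2 marker oligonucleotides inferred from the reads were dropped, and inserts of 16 to 30 nt were kept. Reads were assigned to mature arms by their first 20 bases, using 1679 RefSeq mature names (GRCm38.p6) and 64 arms set from reads on GENCODE M21 hairpins without a RefSeq mature entry, for which no sequence is printed. In all 676 arms had a read, 612 of them from RefSeq, and 49 came from several loci and could not be assigned to 1 of them.

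Levels are CPM scaled by TMM (edgeR 4.0.16) over 8 libraries. Ratios used miRNAs with at least 100 reads in 1 library compared and carry 95% exact conditional binomial intervals, with 3 counts as the limit for 0 reads; shares carry exact Clopper-Pearson intervals. Reads carry no molecular identifiers, so these cover counting error only. The SE printed with an edgeR log2 fold change is its absolute value divided by the square root of the test's F statistic. The edgeR quasi-likelihood test was 2-sided, with Benjamini-Hochberg adjusted p under 0.05 over 341 miRNAs. These had at least 20 reads in 1 library, and the fit had 4 residual degrees of freedom. It was also run on simulated counts with known changes in the starved library and no gap between the experiments. That run lends the calls no support. Nothing in the labels says libraries came from separate cultures. Alternatives were plain shares, DESeq2 1.42.0 size factors and Wald test, TMM over the 3 G0 libraries, minima of 20 and 500 reads, 3-fold, 18 bases, whole-insert hairpin matches, single-locus arms, other released libraries in the gauge, and leaving out each library. R 4.3.3, Python 3.11.15, scipy 1.17.1, pandas 2.3.3 and edlib 1.3.9.post1 were used.

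The libraries, lists and rules were chosen with earlier results of these data known. Named miRNAs were the 12 in each direction farthest from the nearer contact library and up to 8 with the largest gap beyond the gauge. They also included the 5 most abundant, and the 6 nearest to equal with at least 1000 reads in each G0 library. Added to these were every edgeR call, the miR-322/miR-503 cluster, and the highest, lowest and most abundant member of each other list. let-7i-5p, miR-93-5p, miR-146b-5p, miR-299a-5p, miR-154-3p, miR-872-3p, miR-376b-3p and miR-374b-5p were named after their values were seen.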

Additional observations from a re-analysis of the deposited data

Results flagged for a closer look

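For 3 of the 62 miRNAs called in G0, the starved-to-contact gap in G0 and the gap between released and asynchronous cells had opposite signs in every library pair. miR-34b-5p had a log2 ratio to the nearer contact library of −1.40 in G0, while the 4 released libraries over contact day 0 gave 0.20 to 1.99. miR-669c-5p had 1.43 in G0 and −6.29 to −1.69 outside it, the lowest at serum 12 h with 0 reads set at 3 counts. miR-872-3p, from a hairpin with both arms called lower, had −1.46 in G0 and 0.10 to 1.12 outside it. The edgeR interaction, which tests this difference, gave an adjusted p of 0.825 for each of the 3, so none passed it.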

How the results depend on the processing

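The 27 higher and 35 lower calls became 61 and 16 with plain shares of miRNA reads, 8 and 23 with a minimum of 500 reads, 54 and 64 with 20 reads, and 14 and 23 at 3-fold. Requiring 1 contact library only gave 36 to 50 higher and 50 to 55 lower. The gauge, with 67 higher and 55 lower, gave 112 and 17 with plain shares and 37 and 33 with 500 reads, and 41 higher with serum 20 h and 28 with serum 24 h in place of 16 h. The 7 higher miRNAs beyond the gauge were 1 with 500 reads, 4 with serum 12 h, 2 with serum 20 h and 4 with serum 24 h in the gauge. The 18 lower ones were 8 with plain shares, 11 with 500 reads, and 4, 6 and 8 with serum 12 h, 20 h and 24 h. The 5 edgeR calls were 21 with plain shares (18 higher), 24 by the DESeq2 Wald test (18 lower), 3 with 18 bases, and 0 to 21 when 1 library was left out. The interaction gave 0 to 1 in the same way. The cause of these changes was not tested, apart from fewer miRNAs or ratios entering with a minimum or a library changed.

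Of the 37 named miRNAs past the rule, all kept their sign under the 5 scaling and matching alternatives that gave them a value. All 37 kept their call with both DESeq2 and 3-library scaling, and 30 did with plain shares, miR-20a-5p, miR-106b-5p, miR-34b-5p, miR-34c-5p, miR-9-5p, miR-299a-3p and miR-708-5p being the exceptions. With whole inserts in the hairpin 32 of 34 kept it, all but miR-9-5p and miR-322-3p, and with 18 bases 34 of 34. No paired analysis was possible because each time point is 1 library and the labels carry no replicate numbers. Starved G0 and asynchronous cells had 1 library each, so their spread was taken from the other arms. With 236819 miRNA reads in the starved library, a miRNA with 0 reads there could still have stood at 3 counts.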

Other observations

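Some miRNAs had reads in the starved library and almost nowhere else, in a search made after the data were seen. With at least 10 reads in 1 library and at most 1 in each of the others, the starved library had 9 such miRNAs (487 reads), serum 16 h 5, serum 12 h 2 and the other 5 libraries 0. Beside miR-141-3p and miR-200b-3p they were miR-142a-3p of blood cells (62 reads), miR-203-3p of skin epithelium (40), miR-200a-3p (33), miR-375-3p of secretory epithelium (19), miR-3097-5p (13), miR-293-5p of pluripotent cells (12) and miR-1843a-5p (10). The starved library also held the most short inserts, 27.9% of its reads, and the source of these miRNAs was not tested.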
